A study of Mus musculus with 16 samples.

Results

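The 10 genes described here belong to the JAK-STAT5 pathway and its feedback loop and were followed through a doxycycline course in AML246, mouse leukaemia cells of the acute myeloid type that were kept in medium with interleukin-3. They are Cish, Socs1, Socs2, Socs3, Stat5a, Stat5b, Stat3, Jak2, Pim1 and Osm. They were chosen by name from textbook knowledge of the pathway, with earlier results of these data known. All 10 were present among the 13652 genes of the RNA-seq count tables. The 16 libraries form 8 groups of 2 replicates, A and B. Untreated cells were taken at day 0, and cells on doxycycline at 0.1 µg/mL were taken after 4, 8 and 12 days. The drug was then removed, and cells were taken 4, 8 and 12 days later (course days 16, 20 and 24), so that these 3 groups had all received 12 days of drug before. These 7 groups were total viable cells from a FACS sort, and the eighth was Cd11b-high viable cells sorted at day 12. The series title ties the schedule to restoring and then again lowering PU.1, a transcription factor of myeloid cells and the product of Spi1. The genotype of the line and the construct that links doxycycline to Spi1 are not given in the sources used here, and all groups come from this 1 line.

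Cytokine receptors of the interleukin-3 family have no enzyme activity of their own and rely on JAK2, a tyrosine kinase bound to their shared beta chain. Active JAK2 phosphorylates STAT5A and STAT5B, closely related transcription factors, which pair up, enter the nucleus and switch on genes for survival and growth such as Pim1. Among the first targets are also the inhibitors of the pathway: CISH and the SOCS proteins bind receptors or kinases and damp the signal, so that their transcripts are often read as a trace of STAT activity. STAT3 is the relative used mainly by receptors that contain gp130 and by the granulocyte colony-stimulating factor receptor, and it drives Socs3. Transcript counts say nothing of phosphorylation, which was not measured.

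Levels are CPM, the counts of a gene as a share of the library's total, scaled by TMM, a normalisation that assumes that most genes do not change, and pairs of library values are given in the order A, B. Changes are log2 folds with their standard error (SE) from 1 edgeR fit of all libraries. Adjusted p values are two-sided and follow Benjamini and Hochberg over all 13652 genes, and a change is said to be called where this value is under 0.05. Nothing in the labels says that A and B were separate cultures, so the p-values measure only a spread that may be technical. In such bulk samples fewer cells of a type and less RNA per cell cannot be told apart. Total counts ran from 12962801 to 26509803 per library, and the members had between 147 and 36278 reads in a library.

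The schedule was visible in Spi1, which stood at 56.8 to 66.3 CPM at day 0, 186 to 248 CPM in all libraries on the drug and 37.2 to 65.0 CPM after withdrawal. Itgam, the gene of Cd11b, stood at 1.41 and 1.77 CPM at day 0, at 719 and 670 CPM at day 12, at 884 and 940 CPM in the Cd11b-high sort and at 1.08 and 1.51 CPM after 12 days off. The summed level of 9 measured neutrophil markers of 10 listed was 615 to 635 CPM at day 0 and 2800 to 3470 CPM at day 4. It was 1266 to 1280 CPM at day 12 and 408 to 584 CPM after 12 days off. Counted singly, 8 of the 9 rose to day 4, with a median log2 fold of 7.18 (28.2% of all genes higher). At day 12, 8 were above day 0, with a median of 5.75 (30.0% of all genes). From day 12 to 12 days off 8 fell, with a median of -6.77 (32.4% of all genes lower). Most single markers thus changed far more than the sum. The 5 macrophage markers measured of 10 summed to 59.4 to 75.8, 1086 to 1260, 381 to 416 and 41.1 to 41.4 CPM in the same groups. All 8 eosinophil markers and 7 of 10 basophil and mast cell markers were measured, with sums of 2077 to 5175 and 2440 to 3018 CPM at day 0. To day 12, 7 of the 8 eosinophil markers rose (30.0% of all genes higher), with a median log2 fold of 4.17 over the 8. The 2 measured B cell markers of 6 summed to at most 4.20 CPM in any library. For T and natural killer cells, 3 markers of 7 were measured. They summed to 223 to 315 CPM at day 0, 130 to 149 at day 4, 357 to 376 at 4 days off and 158 to 190 at 12 days off. The 3 measured erythroid markers of 7 summed to 40.4 to 78.7 CPM at day 0 and 8.10 to 9.20 at day 4. Mitochondrial transcripts took 7.36% and 6.35% of counts at day 0 and 2.01% to 3.59% elsewhere.

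On doxycycline most of the 10 genes rose. After 4 days 6 were higher and 1 was lower than at day 0, in a comparison in which 59.2% of all genes were called (28.2% higher, 31.0% lower). After 12 days 7 were higher and 2 lower, where 63.4% of all genes were called (30.0% higher, 33.4% lower). The median log2 fold of the members at day 12 was 0.76, against -0.07 for all genes. Between consecutive times on the drug few members changed: 2 of 10 from day 4 to day 8 (1 up and 1 down, with 13.9% of all genes called, 6.78% up and 7.16% down) and 1 of 10 from day 8 to day 12 (2.24%, of which 1.82% up and 0.425% down). Leaving out day 4 A or day 8 B left 1 call in the first of these, and leaving out any 1 library left 0 in the second, where a fit of the 4 libraries alone called 6 members. At 4 days after withdrawal 7 members had fallen from day 12 and 1 had risen, where 36.8% of all genes were called (18.0% higher, 18.8% lower), and the median was -0.73 against 0.04 for all genes.

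The return was not the same for all members. At 12 days after withdrawal 5 members were lower and 2 higher than at day 12 (65.3% of all genes called, 32.9% higher and 32.4% lower). Against day 0, 24 days before, Cish, Socs1 and Osm were then higher, Socs3 and Stat3 were lower, and 5 members were not called (43.6% of all genes called, 21.6% higher and 22.0% lower). Without day 0 B, 3 of these calls remained, and with the 4 libraries alone 2, those of Cish and Socs1. At 4 days off 6 members differed from day 0 and at 8 days off 4 did (37.9% and 33.1% of all genes called), the latter falling to 2 without day 0 B, 8 days off A or 8 days off B. Between 4 and 8 days off 2 members rose and 3 fell (24.0% of all genes called), and without 8 days off A 2 calls were made. The comparisons with day 0 share the day 0 libraries, and those with day 12 share the day 12 libraries.

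**Figure D1:**
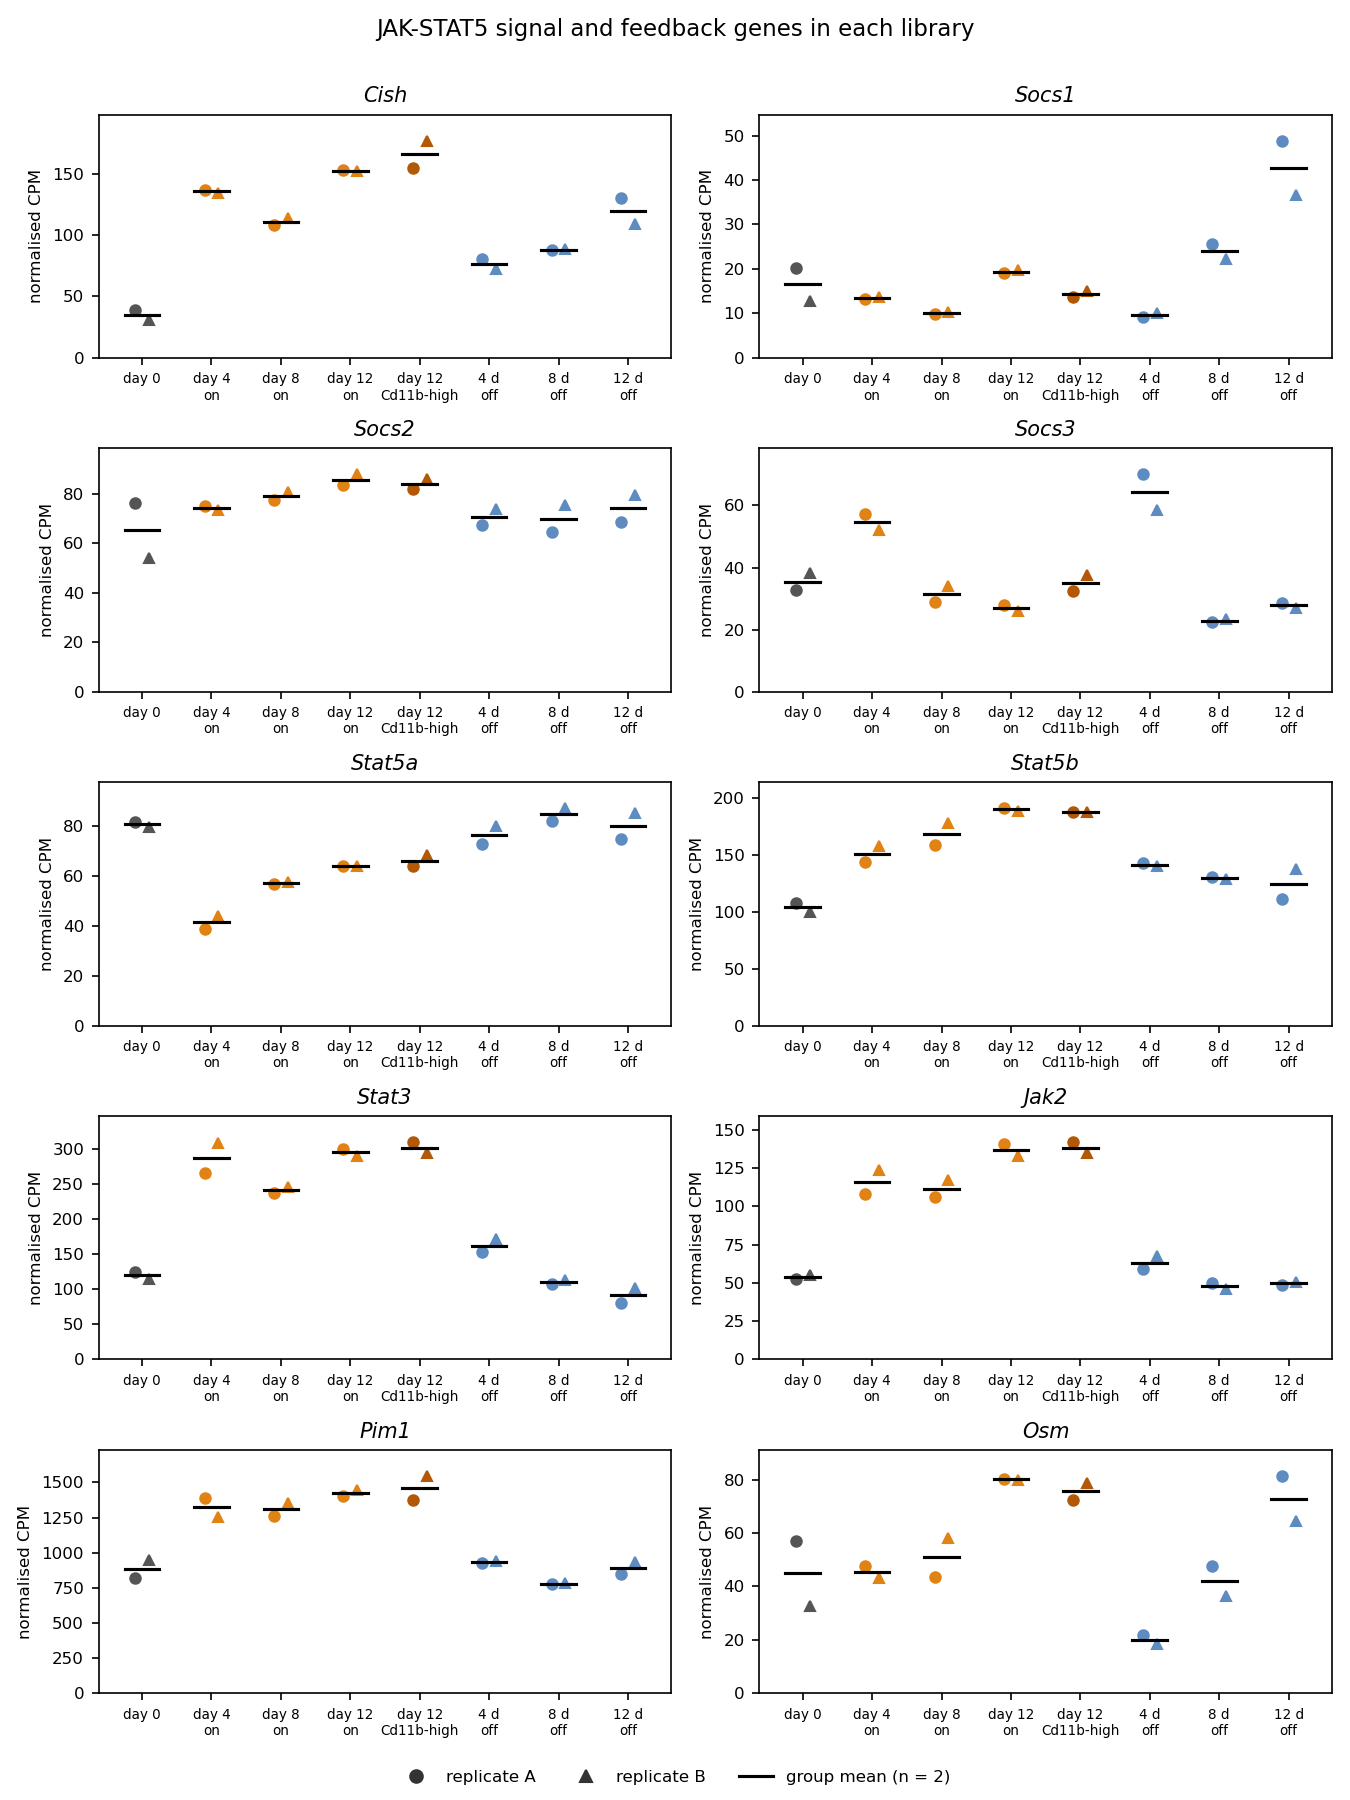
Normalised CPM of the 10 members in each of the 16 libraries (circles, replicate A; triangles, replicate B; bars, group mean of n = 2), on linear axes from 0. Jak2, Stat3 and Pim1 stood higher in all libraries on the drug than in any other, Cish stayed above its day 0 libraries in every later group, and Socs1 was highest after 12 days off at 48.9 and 36.6 CPM.

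Jak2 (Entrez 16452, GRCm38.p6, chromosome 19, 29251803 to 29313095), the kinase of the interleukin-3 receptor, had a level that went up with the drug and came back without it. Its libraries stood at 52.9 and 55.2 CPM at day 0, at 108 and 124 on day 4, at 106 and 117 on day 8 and at 141 and 133 on day 12. After withdrawal they stood at 59.1 and 67.4, then 50.1 and 46.3, then 48.4 and 50.9 CPM. All libraries on the drug lay above all others. Jak2 rose 2.14-fold by day 4 (log2 fold 1.10, SE 0.11, adjusted p = 6.8e-07) and stood 2.53-fold above day 0 at day 12 (log2 fold 1.34, SE 0.11, adjusted p = 9e-08). It fell by 1.11 on the log2 scale within 4 days off (SE 0.11, adjusted p = 2.4e-06). A further fall from 4 to 8 days off (log2 fold -0.39, adjusted p = 0.017) was lost without 4 days off B (0.15), 8 days off A (0.056) or 8 days off B (0.13). After 12 days off the log2 fold against day 0 was -0.12 (95% interval -0.36 to 0.11, adjusted p = 0.39).

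Stat3 (Entrez 20848, chromosome 11, 100886806 to 100939594) followed the same course over a wider range. It stood at 125 and 114 CPM at day 0, at 265 and 308 on day 4, at 237 and 246 on day 8 and at 300 and 290 on day 12. At 4 days off it was at 153 and 171 CPM, then at 108 and 113, and at 12 days off at 80.0 and 102. Stat3 was 2.47-fold higher at day 12 than at day 0 (log2 fold 1.30, SE 0.12, adjusted p = 4.3e-07), and at 12 days off 3.24-fold below day 12 (log2 fold -1.69, SE 0.12, adjusted p = 2.9e-08). Its last libraries were below both day 0 libraries, with a log2 fold against day 0 of -0.39 (SE 0.12, adjusted p = 0.018). That call was lost with the 4 compared libraries alone (0.22), without day 0 A (0.13) and without 12 days off A (0.11).

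The paralogs Stat5a and Stat5b moved in opposite directions in the first 4 days. The genes lie next to each other on chromosome 11, 346 bases apart in the RefSeq table, with Stat3 as the next gene in the trio. Stat5a (Entrez 20850, 100859351 to 100885169) fell from 81.6 and 79.4 CPM at day 0 to 38.7 and 43.8 CPM at day 4 (log2 fold -0.96, SE 0.10, adjusted p = 1.6e-06). Stat5b (Entrez 20851, 100780731 to 100859004) rose over the same days from 108 and 99.9 to 144 and 158 CPM (log2 fold 0.54, SE 0.11, adjusted p = 0.00067). All libraries of the groups were apart for both genes.

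On the drug Stat5a then stood higher again, at 56.5 and 57.6 CPM on day 8 and at 63.9 in both libraries of day 12. The step from day 4 to day 8 was called (log2 fold 0.47, adjusted p = 0.0078), but not without day 4 A (0.095) or day 8 B (0.073). At day 12 Stat5a was still below day 0 (log2 fold -0.33, SE 0.10, adjusted p = 0.010). This call missed the threshold without day 12 A (0.055) or B (0.054). Stat5b stood at 159 and 178 CPM on day 8 and at 191 and 189 on day 12, 1.83-fold above day 0 (log2 fold 0.87, SE 0.11, adjusted p = 8.2e-06).

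After withdrawal the pair came together. Stat5a stood at 72.5 and 80.0, then 82.0 and 86.9, then 74.8 and 85.1 CPM, and its last log2 fold against day 0 was -0.01 (95% interval -0.23 to 0.21, adjusted p = 0.95). From day 12 to 12 days off it rose by a log2 fold of 0.32 (adjusted p = 0.012), a call lost with the 4 libraries alone (0.094) and without day 12 A or B (0.059 for each). Stat5b fell from day 12 to 143 and 140 CPM at 4 days off (log2 fold -0.43, adjusted p = 0.0076; 0.054 without day 12 A). It then stood at 131 and 129, and at 111 and 138 CPM. Its level at 12 days off was 1.52-fold below day 12 (log2 fold -0.61, SE 0.11, adjusted p = 0.00021). The log2 fold to day 0 was then 0.27 (95% interval 0.03 to 0.50, adjusted p = 0.065), which was called with RLE factors (0.030), with a filter at 1 CPM (0.025), with DESeq2 (0.018), without mitochondrial genes (0.026) and without 12 days off A (0.0024).

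Per kilobase of gene length the paralogs can be set against each other inside a library, where the scaling of libraries cancels. The Stat5b level was 0.941 and 0.900 times that of Stat5a at day 0, 2.66 and 2.57 times at day 4, and 2.14 and 2.11 times at day 12. It was 1.41 and 1.25 times at 4 days off and 1.06 and 1.16 times at 12 days off. By the deposited lengths the balance lay with Stat5b in every library but those of day 0, most of all at day 4. Those lengths were 3888 bases for Stat5a and 5442 for Stat5b, against 7133 and 5539 exonic bases in GENCODE M21. With either set of lengths Stat5b leads in every library after day 0, while the leading paralog at day 0 depends on the set used. The relative shift of the ratio between groups does not depend on the lengths. Stat5a shares 8.21% of its 50-base transcript windows with Stat5b, and 11% of the windows of Stat5b are shared, so part of the reads could be counted for either or for neither. The exons of Stat5a and Stat3 overlap by 72 bases on opposite strands in GENCODE M21, while the RefSeq genes are 1636 bases apart, and no source used here gives the strand setting of the counting.

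**Figure D2:**
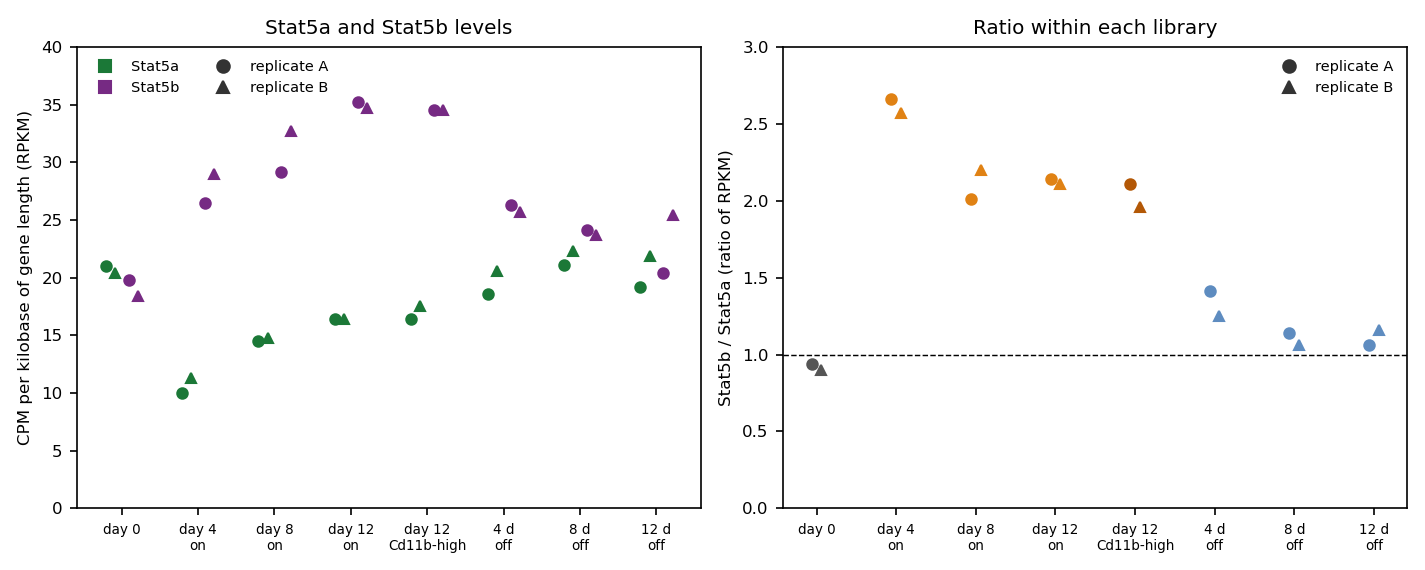
Left, Stat5a (green) and Stat5b (purple) in each library as CPM per kilobase of the deposited gene length (RPKM). Right, their ratio within each library, with a dashed line at equal levels, which lay at 0.900 to 0.941 on day 0, at 2.57 to 2.66 on day 4 and at 1.06 to 1.16 after 12 days off.

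Cish (Entrez 12700, chromosome 9, 107296659 to 107302784) encodes the inhibitor that is among the most direct STAT5 targets, and it had the largest change of the 10 at day 12. The start of the gene is printed here because it holds 2 close matches to the letters that STAT5 pairs bind, TTCNNNGAA, which read the same on both strands. Capitals mark them, and the stretch runs 5′ to 3′ on the plus strand from 250 bases before the RefSeq start to 20 bases after it (GRCm38.p6, chr9:107296409-107296678).
Cish: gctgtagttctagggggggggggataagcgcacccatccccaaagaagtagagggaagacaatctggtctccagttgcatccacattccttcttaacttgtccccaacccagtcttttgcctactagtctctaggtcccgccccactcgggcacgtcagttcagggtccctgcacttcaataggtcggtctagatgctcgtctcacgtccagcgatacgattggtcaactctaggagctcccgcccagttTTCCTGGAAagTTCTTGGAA
The first match covers bases 1 to 9 after the RefSeq start and the second bases 12 to 20, with 2 bases between them. In GENCODE M21 the gene as listed starts further upstream, at 107296026. Of 32851 RefSeq windows of 300 bases around mouse gene starts, 8.3% hold at least 1 match, 0.457% hold 2 or more, and 3 hold a pair whose starts are at most 12 bases apart. Such windows were given for 8 of the 10 members, and those of Cish and Socs3 hold matches. A second string, GAGGAAG, was searched on both strands of the same windows. No member window holds it, while 13.6% of the 32851 windows do. The letters TTCNNNGAA were chosen after the Cish window had been seen. The limit of 12 bases lies just above the 11 bases between the Cish starts, and the Cish window is 1 of the 3. The count of 3 is therefore no test of how rare such a pair is. A match describes the sequence and shows no binding.

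The Cish libraries stood at 38.8 and 30.8 CPM at day 0. On the drug they stood at 137 and 134, then 108 and 114, then 153 and 152 CPM. Cish thus rose 3.88-fold in 4 days (log2 fold 1.96, SE 0.13, adjusted p = 9.2e-09) and was 4.38-fold above day 0 at day 12 (log2 fold 2.13, SE 0.13, adjusted p = 5e-09). After 4 days off it stood at 80.2 and 72.7 CPM, below both day 12 libraries (log2 fold -1.0, 95% interval -1.26 to -0.74, adjusted p = 2.3e-05).

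Cish did not go back to its first level. It stood at 87.4 and 88.3 CPM after 8 days off and at 130 and 109 CPM after 12, and all 6 libraries after withdrawal lay above both day 0 libraries. Against day 0 the log2 folds were 1.13, 1.33 and 1.78 at 4, 8 and 12 days off (SE 0.13 each, adjusted p = 1.1e-05, 4.4e-06 and 1.7e-07). The last is a 3.43-fold difference, with a 95% interval of the log2 fold from 1.51 to 2.05, and it was called in all 13 alternative analyses run. Jak2, Pim1 and Stat5a were not called in that comparison. From 8 to 12 days off the log2 fold of Cish was 0.44 (adjusted p = 0.052), which passed the threshold in 7 alternatives, among them DESeq2 (0.011) and the fit without 12 days off B (log2 fold 0.61, 0.00038). Against day 12 it was still lower at 12 days off (log2 fold -0.35, adjusted p = 0.018). That call was lost with scaling by library size alone (0.069), in the fit of the 4 libraries (0.13), and without day 12 A (0.072), day 12 B (0.064) or 12 days off B (0.14). In GENCODE M21, Cish exons overlap those of Gm17041, an antisense gene, by 479 bases and those of Gm17040 by 261, so their reads may not be separable.

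Socs1 (Entrez 12703, chromosome 16, 10783808 to 10785536), whose protein blocks JAK kinases directly, had another course. It stood at 20.3 and 12.8 CPM at day 0, at 13.2 and 13.6 on day 4, at 9.93 and 10.2 on day 8 and at 19.0 and 19.8 on day 12. After withdrawal it stood at 9.07 and 10.0, then at 25.7 and 22.3, then at 48.9 and 36.6 CPM. The last 2 libraries were above all 14 others. Socs1 fell by 1.02 on the log2 scale in 4 days off (SE 0.19, adjusted p = 0.00084) and then rose 2.51-fold to 8 days off (log2 fold 1.33, SE 0.19, adjusted p = 0.00019). Socs1 at 12 days off was 2.56-fold higher than at day 0 (log2 fold 1.35, SE 0.18, adjusted p = 3.8e-05) and 2.21-fold above day 12 (log2 fold 1.14, SE 0.18, adjusted p = 5.3e-05). The call against day 0 was kept in all 13 alternatives.

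Other steps of Socs1 rested on few libraries. The step from day 8 to day 12 (log2 fold 0.94, adjusted p = 0.016) was lost when any 1 of its 4 libraries was left out, with adjusted p values of 0.19 and 0.12 without day 8 A and B and of 0.092 and 0.13 without day 12 A and B. The step from 8 to 12 days off, the only call among the members there (log2 fold 0.83, adjusted p = 0.019, with 3.71% of all genes called, 1.54% higher and 2.18% lower), was lost with the 4 libraries alone (0.61). It was also lost without 8 days off A (0.079), 8 days off B (0.23) or 12 days off A (0.11), while without 12 days off B 4 members were called. At 4 days off Socs1 was below day 0 (log2 fold -0.81, adjusted p = 0.0047), but not without day 0 A (0.12). At 8 days off it was above day 0 (log2 fold 0.52, adjusted p = 0.040), a call lost without day 0 B (0.34), 8 days off A (0.20) or 8 days off B (0.069).

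Socs3 (Entrez 12702, chromosome 11, 117966079 to 117970336), the inhibitor tied to STAT3 and gp130 receptors, was high at 2 separate times. Its RefSeq window on the minus strand, set on a transcript start at 117969366 that lies inside the gene as listed, holds 1 match to the same letters. It is shown in the stretch from 200 to 101 bases before that start (GRCm38.p6, chr11:117969467-117969566) because Socs3 and Cish are the members with a match and had unlike courses.
Socs3: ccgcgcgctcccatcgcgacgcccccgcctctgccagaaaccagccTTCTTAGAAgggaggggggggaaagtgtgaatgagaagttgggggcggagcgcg
Socs3 stood at 32.8 and 38.1 CPM at day 0, at 57.1 and 52.1 on day 4, at 28.9 and 34.0 on day 8 and at 27.9 and 26.0 on day 12. After withdrawal it stood at 70.0 and 58.6 CPM, then at 22.3 and 23.5, then at 28.6 and 27.1. The 4 libraries taken 4 days after adding or removing the drug were the highest of the 16.

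Socs3 rose by a log2 fold of 0.63 to day 4 (SE 0.13, adjusted p = 0.00062) and fell by 0.80 on the log2 scale to day 8 (SE 0.13, adjusted p = 0.00089). It rose 2.39-fold from day 12 to 4 days off (log2 fold 1.25, SE 0.13, adjusted p = 4e-06), the 1 rise among the members in that comparison, and fell by 1.49 on the log2 scale to 8 days off (SE 0.13, adjusted p = 2.3e-06). The call of a lower level at day 12 than at day 0 (log2 fold -0.39, adjusted p = 0.015) was lost without day 0 B (0.13) or day 12 B (0.10). At 12 days off the log2 fold against day 0 was -0.35 (adjusted p = 0.041). This was lost in 5 other analyses of the libraries, at adjusted p values from 0.076 (RLE factors) to 0.29 (4 libraries alone), and without day 0 B (0.25) or 12 days off B (0.19).

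Socs2 (Entrez 216233, chromosome 10, 95383903 to 95417321), the STAT5 target that limits growth hormone signalling, varied least. Its 16 libraries lay between 54.1 and 87.7 CPM, and its highest group mean was 1.31 times the lowest. It stood at 76.3 and 54.1 CPM at day 0 and at 83.6 and 87.7 at day 12. The rise to day 12 (log2 fold 0.39, SE 0.14, adjusted p = 0.023) was lost with library size alone (0.11) and without day 0 B (log2 fold 0.17, 0.30), day 12 A (0.055) or day 12 B (0.10). It was the single comparison of the 12 in which Socs2 was called.

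Pim1 (Entrez 18712, chromosome 17, 29490785 to 29496111), a survival kinase and STAT5 target, was the most abundant member per length, at a mean of 503 RPKM at day 0. The other 9 stood between 10.7 (Jak2) and 26.6 RPKM (Stat3) there. In CPM, Pim1 stood at 819 and 951 at day 0, at 1393 and 1257 on day 4, at 1265 and 1351 on day 8 and at 1402 and 1444 on day 12. After withdrawal it stood at 930 and 943, then 775 and 783, then 846 and 937 CPM. No library off the drug reached any on it. Pim1 was 1.61-fold higher at day 12 than at day 0 (log2 fold 0.69, SE 0.11, adjusted p = 6.7e-05) and fell by 0.60 on the log2 scale in 4 days off (SE 0.11, adjusted p = 0.00064). At 12 days off its log2 fold against day 0 was 0.01 (95% interval -0.22 to 0.24, adjusted p = 0.95), while that of Cish was 1.78. Pim1 exons overlap 488 bases of the antisense gene Gm26885 in GENCODE M21.

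Osm (Entrez 18413, chromosome 11, 4236785 to 4241026) encodes oncostatin M, a cytokine of the interleukin-6 family that is made by myeloid cells and is itself a STAT5 target. It stood at 57.1 and 32.7 CPM at day 0, at 47.7 and 43.2 on day 4, at 43.6 and 58.2 on day 8 and at 80.2 and 79.9 on day 12. After withdrawal it stood at 21.9 and 18.3, then 47.6 and 36.4, then 81.3 and 64.5 CPM. The 4 days off libraries were the lowest of all 16. Osm fell 3.97-fold from day 12 to 4 days off (log2 fold -1.99, SE 0.23, adjusted p = 1.6e-05), the largest fall of any member in that comparison. It then rose by a log2 fold of 1.06 to 8 days off (adjusted p = 0.0039; 0.051 without 8 days off A).

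The day 0 libraries of Osm were far apart, and calls against them moved with it. The rise to day 12 (log2 fold 0.83, SE 0.22, adjusted p = 0.0039) was 0.49 without day 0 B (adjusted p = 0.059). The higher level at 12 days off (log2 fold 0.69, SE 0.22, adjusted p = 0.018) was lost with the 4 libraries alone (0.093), without day 0 B (0.20) and without 12 days off A (0.12). At day 4 the log2 fold was 0.01 (adjusted p = 0.97), and the lower level at 4 days off than at day 0 was called (log2 fold -1.16, adjusted p = 0.0012).

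The summed level of the eosinophil markers was 5175 and 2077 CPM at day 0, 211 and 251 at day 4, 2974 and 3335 at day 8 and 8275 and 9215 at day 12. It was 1163 and 1325 CPM at 4 days off, 2657 and 2184 at 8 and 4205 and 4286 at 12. Like the values of Osm and Socs1, the sum was lower in B than in A at day 0 and lower at 4 days off than at day 12 and at 12 days off. Counted singly, 8 of 8 markers fell from day 12 to 4 days off (18.8% of all genes lower). From 4 to 8 days off 7 fell and 1 rose (12.4% and 11.6% of all genes), with a median log2 fold of -1.92, while Osm and Socs1 rose. From 8 to 12 days off 1 marker rose and 1 fell (1.54% and 2.18% of all genes). At 12 days off 7 of the 8 were below day 12, with a median log2 fold of -6.18 (32.4% of all genes lower). Against day 0, 4 were then lower and 2 higher, with a median of -1.45 (22.0% and 21.6% of all genes). The sum did not show the course of most single markers. At day 4, when the sum was lowest, 4 markers were below day 0 and 2 above it (31.0% and 28.2% of all genes). Osm had a log2 fold of 0.01 there. Basophil and mast cell markers summed to 3018 and 2440 CPM at day 0 and 680 and 794 at day 4. Their sums were 1440 and 1534 CPM at day 8 and 2198 and 2211 at day 12. After withdrawal they were 1739 and 1759 CPM at 4 days off, 1911 and 1687 at 8 and 2740 and 2237 at 12. The part of these cells in the results was not tested. The neutrophil and macrophage sums given above were higher on the drug than at day 0, as were Jak2, Stat3, Stat5b, Pim1 and Cish. Their part in those results was not tested either.

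**Figure D3:**
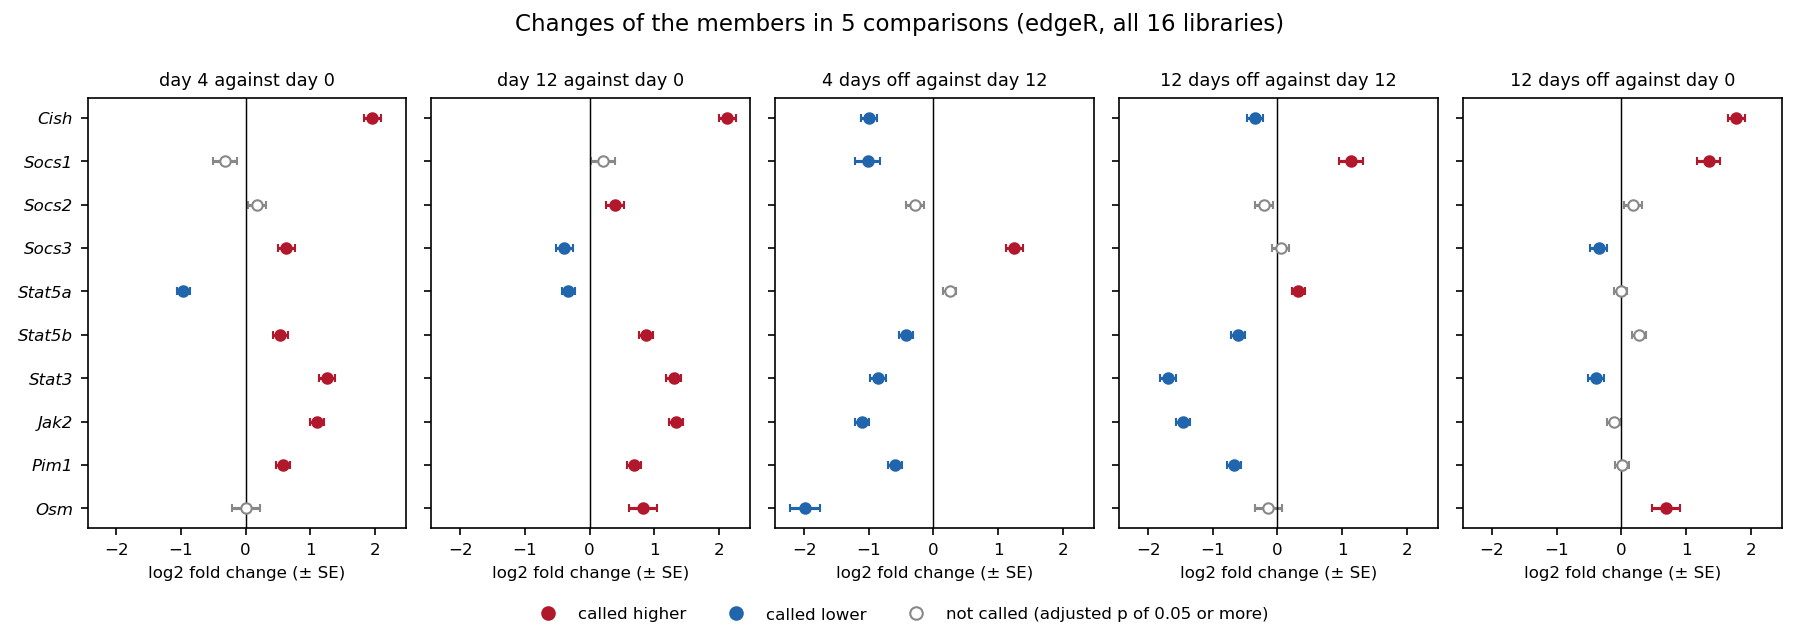
Log2 fold changes of the 10 members (± SE of the edgeR fit) in 5 comparisons; red, called higher; blue, called lower; open, not called. At 12 days off against day 0, Cish (1.78) and Socs1 (1.35) stand to the right of all others, and Jak2, Stat5a and Pim1 lie near 0.

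The order of group means differed between members. For Jak2, Stat3 and Pim1 the 4 groups on the drug, the sort included, ranked above the other 4, and for Pim1 at 12 days off and day 0 the neighbouring library ranges overlapped. For Stat5a the 4 groups on the drug were the lowest. Cish had its Cd11b-high, day 12 and day 4 groups on top, then 12 days off (mean 120 CPM) and day 8 (111 CPM) with overlapping libraries, and day 0 last at 34.8 CPM. For Socs1 the top was 12 days off at a mean of 42.8 CPM, followed by 8 days off at 24.0. Over the 8 group means of log2 CPM, Pearson's r with Spi1 was 0.99 for Jak2, 0.98 for Pim1, 0.97 for Stat3 and 0.82 for Stat5b. It was 0.63 for Cish, 0.15 for Socs3, -0.48 for Socs1 and -0.81 for Stat5a. These values describe 8 points of 1 course that share its scaling, and carry no test.

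Genes with a pattern like a member's were sought for the members whose highest group mean was at least 4 times the lowest, which were Cish (4.79) and Socs1 (4.48). Osm, at 3.98, was just outside. Among 9074 genes with means of 10 CPM or more, those with the highest Pearson's r to Cish over the 8 group means included Fxyd5 (0.990) and Cmas (0.989). Fxyd5, a regulator of the sodium pump, ranged from a mean of 123 CPM at day 0 to 379 CPM in the Cd11b-high cells and stood at 315 CPM at 12 days off. Closest to Socs1 were Cdkn2a (0.967), Srxn1 (0.967) and Mfge8 (0.965). Cdkn2a, which encodes cell cycle inhibitors, had means of 5.81 CPM at 4 days off and 28.8 CPM at 12 days off. Mfge8, a secreted protein that bridges dying cells to phagocytes, had means of 33.3 and 170 CPM at those times.

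The Cd11b-high sort at day 12 showed how far the members differ between these cells and the total. Cish stood at 155 and 177 CPM in it against 153 and 152 in total cells, Jak2 at 142 and 135 against 141 and 133, and Stat5b at 188 in both libraries against 191 and 189. No member was called by edgeR (0.0146% of all genes called). At an unadjusted p under 0.05 there were 2 members, Socs1 and Socs3, and 309 genes in all. DESeq2 and limma-voom called 0 members. A fit of these 4 libraries alone called the same 2, with a log2 fold of -0.44 for Socs1 (adjusted p = 0.017) and 0.37 for Socs3 (0.022). Socs1 stood at 13.7 and 15.1 CPM in the sort and Socs3 at 32.5 and 37.5.

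Another 45 measured genes of the pathway, listed from textbook knowledge with earlier results of these data known, were counted beside the members. From day 0 to day 12, 28 rose and 5 fell, with a median log2 fold of 0.55 (over all genes 30.0% rose and 33.4% fell, with a median of -0.07). From day 12 to 12 days off, 7 rose and 28 fell, with a median of -0.61 (over all genes 32.9%, 32.4% and 0.00). At 12 days off 13 were higher and 12 lower than at day 0 (over all genes 21.6% and 22.0%). In the Cd11b-high cells 0 were called by edgeR at day 12.

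Of 8 cytokine receptor genes 5 rose to day 12 and 1 fell, in a comparison that called 63.4% of all genes. Csf2rb, the beta chain shared by the interleukin-3, interleukin-5 and GM-CSF receptors, rose from a mean of 466 to 1281 CPM (log2 fold 1.46, SE 0.12, adjusted p = 1.2e-07). Csf2rb2, the mouse beta chain used by interleukin-3 alone, rose from 152 to 727 CPM (log2 fold 2.26, SE 0.19, adjusted p = 1.1e-07) and was at 177 CPM after 12 days off. These 2 genes share 12.3% and 18.4% of their 50-base transcript windows, so the split of reads between them is uncertain. Epor, the erythropoietin receptor, fell from 10.7 to 1.23 CPM at day 12 (log2 fold -3.12, SE 0.34; -2.50 without day 0 A). From day 12 to 12 days off 5 receptor genes fell and 2 rose (32.4% and 32.9% of all genes). Il5ra, the interleukin-5 receptor chain and one of the eosinophil markers, fell from 40.5 to 1.86 CPM (adjusted p = 2.7e-10), and Csf3r, the granulocyte colony-stimulating factor receptor, from 165 to 52.5 CPM (adjusted p = 5.1e-08). Il6ra rose from a mean of 0.283 CPM at day 0 to 6.68 at day 4 (log2 fold 4.54, SE 0.37, adjusted p = 1.2e-07). It fell to 1.95 CPM at day 8 (log2 fold -1.76, SE 0.27, adjusted p = 0.00063). Later means were 1.68 CPM at day 12 and 0.161 at 12 days off. Osmr, Il6st and Lifr, the other receptor chains listed for oncostatin M and its relatives, were not found by symbol among the genes counted.

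Among the kinases, Jak1 rose from a mean of 112 to 475 CPM at day 12 (log2 fold 2.08, SE 0.13, adjusted p = 8.3e-09), and fell to 178 CPM at 12 days off. Tyk2 rose from 107 to 148 CPM and then fell to 67.0 CPM (adjusted p = 0.0021 and 6.5e-07). Jak3, the kinase of common gamma chain receptors, fell from 310 to 203 CPM at day 12 (log2 fold -0.61, adjusted p = 0.00046). Among other STAT genes, Stat4 rose from 3.89 to 15.2 CPM at day 12 and fell to 6.30 CPM at 12 days off. Stat2 fell from 249 to 171 CPM (log2 fold -0.54, adjusted p = 0.00038). Stat6 was called lower at 12 days off than at day 12 (117 against 192 CPM, adjusted p = 4.9e-05).

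Of the 4 other SOCS genes Socs7 alone was called at day 12, in a comparison that called 63.4% of all genes. It rose from 43.7 to 73.8 CPM (log2 fold 0.76, adjusted p = 0.0012). At 12 days off it was at 44.5 CPM, a fall from day 12 with an adjusted p of 0.0014, or 0.070 with the 4 libraries alone. Calls of Socs5 (log2 fold -0.36, adjusted p = 0.025) and Socs6 (0.38, 0.049) from day 12 to 12 days off were each lost without day 12 A, without day 12 B and without 1 of the later libraries. Their adjusted p values were then 0.11, 0.068 and, without 12 days off A, 0.13 for Socs5, and 0.20, 0.090 and, without 12 days off B, 0.15 for Socs6. Socs5 was also lost with library size alone (0.10) and the 4 libraries alone (0.13), and Socs6 with RLE factors (0.051), DESeq2 (0.053) and the 4 libraries alone (0.098). Of 9 phosphatases and adaptors 7 rose to day 12 and 0 fell (30.0% and 33.4% of all genes). Ptpn1, a phosphatase that acts on JAK2, rose from 42.9 to 113 CPM (log2 fold 1.40, SE 0.13), Ptpn11 from 136 to 285 CPM and Ptpn6, the SHP-1 phosphatase, from 111 to 188 CPM. From day 12 to 12 days off 7 of the 9 fell and 1 rose (32.4% and 32.9% of all genes), with Dok2 down from 36.8 to 9.15 CPM (log2 fold -2.01, SE 0.12, adjusted p = 3.1e-09), Ptpn1 at 60.8 and Ptpn6 at 108 CPM. Of 4 PIAS genes Pias1 rose to day 12 (41.5 to 78.1 CPM), where 30.0% of all genes rose. Pias1 and Pias3 fell afterwards, to 55.4 and 29.3 CPM, where 32.4% of all genes fell. The later call of Pias1 was lost with the 4 libraries alone (adjusted p = 0.067).

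Among the targets, both relatives of Pim1 were called at day 12 against day 0 (63.4% of all genes called). Pim2 rose from 14.5 to 27.1 CPM at day 12 (adjusted p = 0.00051), and Pim3 fell from 72.0 to 49.2 CPM (adjusted p = 0.0032) and rose to 75.9 CPM at 12 days off. Of 10 other textbook STAT5 targets 7 rose to day 12 and 1 fell (30.0% and 33.4% of all genes), and 1 of the 7, Il2ra, had a mean of only 0.0272 CPM at day 0 and 0.890 CPM at day 12. Ccnd3, a D-type cyclin, rose from 161 to 406 CPM (log2 fold 1.33, SE 0.12, adjusted p = 2.8e-07) and Gab2, a signalling adaptor, from 59.6 to 148 CPM (log2 fold 1.31, SE 0.16, adjusted p = 4.1e-06). Myc, the growth regulator, fell from 339 to 183 CPM (log2 fold -0.89, SE 0.09, adjusted p = 1.3e-06) and rose to 455 CPM at 12 days off (log2 fold 1.31, SE 0.09, adjusted p = 2.2e-08). Ccnd2 also rose after day 12, from 23.8 to 52.8 CPM, and Bcl2l1, which encodes the survival protein BCL-XL, fell from 44.4 to 21.3 CPM (adjusted p = 7.2e-06 and 1.6e-05).

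**Figure D4:**
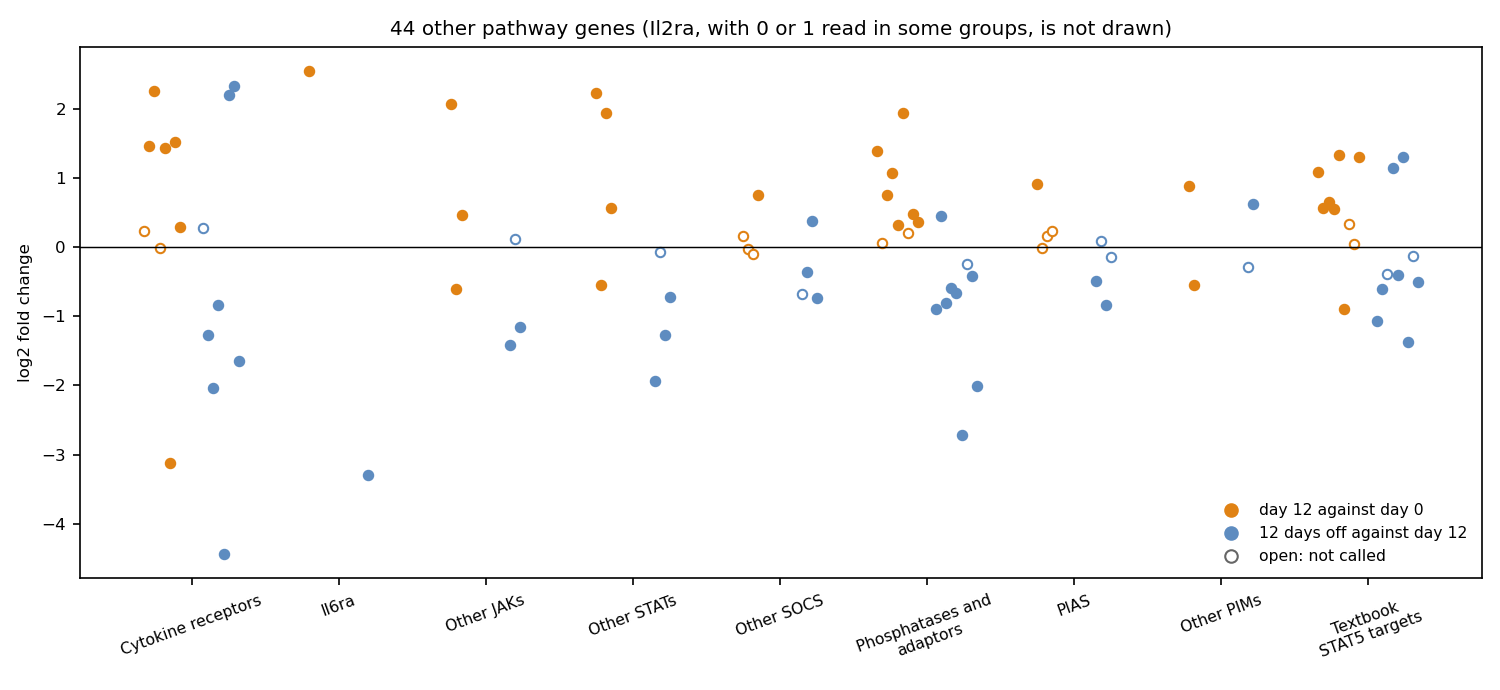
Log2 fold changes of 44 other pathway genes by group of function, from day 0 to day 12 (orange) and from day 12 to 12 days off (blue); filled, called; open, not called. Most orange points lie above 0 and most blue points below it, with 28 rises and 28 falls called among all 45 genes; Il2ra, with 0 or 1 read in some groups, is not drawn.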

How the data were processed

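RNA was prepared from FACS-sorted AML246 cells and sequenced on an Illumina NextSeq500, per the labels' protocols. The authors deposited 1 table per library with whole-number read counts and a length per Entrez gene, per the file headers. The submitters' processing notes name featureCounts, edgeR, limma and mm10, without versions, and the aligner and strand setting are not given in the sources used here. Symbols came from a RefSeq GRCm38.p6 table (13216 of 13652 genes matched). From the counts, a quasi-likelihood F test (edgeR 4.0.16, limma 3.58.1, R 4.3.3) was fitted to all 16 libraries with TMM factors, 1 mean per group and robust dispersions. Residual degrees of freedom were 8, the common biological variation was 10.9% (as a coefficient), and the filter on low counts removed 0 genes. There were 12 comparisons. RPKM is normalised CPM per kilobase of the deposited length. Group means are over n = 2 libraries. Total counts of 12962801 to 26509803 set the precision.

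The members and gene lists were chosen with earlier results of these data known. All members are named. Of the other pathway genes, up to 3 called genes per list with the lowest adjusted p are named from day 0 to day 12 and from day 12 to 12 days off, and some genes that meet the naming rules are not reported here. Alternatives were RLE factors, library size alone, no filter, a mean of at least 1 CPM, DESeq2 1.42.0, limma-voom, a replicate block, no mitochondrial genes, only the 4 libraries compared, and each library left out in turn. The fit with no filter gave the same calls as the fit with the filter, which removed 0 genes. Its part in the counts of alternatives was thus fixed in advance. The same alternatives for the other pathway genes were added after seeing the data. The scripts were tested on simulated data.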

Additional observations from a re-analysis of the deposited data

How the results depend on the processing

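No called change of a named gene turned its direction under any alternative. Of the calls repeated under alternatives, 1178 were kept and 70 fell short of the threshold, and 38 values that had not been called passed it. With library size alone the median log2 fold of all genes moved from -0.07 to -0.20 at day 12 against day 0, from 0.04 to 0.15 at 4 days off against day 12 and from 0.00 to 0.11 at 12 days off against day 12. Genes called higher and lower at 4 days off were then 3480 and 1906 in place of 2459 and 2570, 749 and 1201 from day 4 to day 8 in place of 926 and 977, 168 and 86 from day 8 to day 12 in place of 248 and 58, and 151 and 335 from 8 to 12 days off in place of 210 and 297. Fits of the 4 libraries compared rest on 2 residual degrees of freedom. They called 4 members and 2888 genes from day 4 to day 8 (2 and 1903 with all libraries), 6 and 3402 from day 8 to day 12 (1 and 306), 2 and 313 in the Cd11b-high sort (0 and 2), 0 and 0 from 8 to 12 days off (1 and 507), and 2 and 2160 at 12 days off against day 0 (5 and 5950), where 9 other pathway genes were called in place of 25. DESeq2 called 2 members and 457 genes from day 8 to day 12 and 15 genes in the sort. From 8 to 12 days off it called 3 members and 1195 genes. In the sort, library size alone, a mean of at least 1 CPM and limma-voom each called 1 gene. From 8 to 12 days off 3 members were called with RLE factors, a mean of at least 1 CPM, limma-voom and no mitochondrial genes. All genes called in these fits were 557, 580, 568 and 564. Whether the replicate letters pair the samples is not given in the labels. The deviations of A from B correlated by over 0.1 in 9 of 28 pairs of groups (range -0.14 to 0.43), which does not settle it. With the replicate block 3 members and 987 genes were called from 8 to 12 days off.

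Leaving out 1 library gave 7211 to 7570 genes and 6 to 10 members at day 12 against day 0, 6531 to 7228 and 7 to 8 at day 4 against day 0, 590 to 1217 and 1 to 2 from day 4 to day 8, 77 to 113 and 0 from day 8 to day 12, and 1 gene and 0 members in the sort. After withdrawal it gave 2522 to 4470 genes and 7 to 8 members at 4 days off against day 12, 1532 to 2027 and 2 to 5 from 4 to 8 days off, 29 to 6159 and 0 to 4 from 8 to 12 days off, and 7436 to 9627 and 5 to 7 at 12 days off against day 12. Against day 0 it gave 3031 to 4238 and 4 to 6 at 4 days off, 2533 to 3385 and 2 to 3 at 8, and 4169 to 7676 and 3 to 5 at 12. The 6159 genes and 4 members came without 12 days off B. Some log2 folds that were not called changed sign when 1 library was left out. Against day 0, Socs1 ranged from -0.60 to 0.06 at day 4 and from -0.07 to 0.59 at day 12, Socs2 from -0.04 to 0.46 at day 4 and from -0.04 to 0.45 at 12 days off, and Osm from -0.33 to 0.48 at day 4. Osm at 12 days off against day 12 ranged from -0.31 to 0.05. At 12 days off against day 0, Stat5a was 0.04 with RLE factors, DESeq2, a mean of at least 1 CPM and no mitochondrial genes, 0.00 with 4 libraries, and -0.03 to 0.08 with 1 library left out. Pim1 there was -0.02 with library size alone and -0.09 to 0.12 with 1 library left out. The cause of these shifts was not tested. The members had at least 147 reads in each library.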
